A study of Mus musculus with 18 samples.

Results

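IL-7 and IL-15 are the cytokines that keep resting T cells alive and dividing slowly in the absence of antigen, and both belong to the common gamma chain family, whose receptors share the subunit encoded by Il2rg. IL-7 binds the IL-7 receptor alpha chain together with the gamma chain, whereas IL-15 is held by its own alpha chain and signals through the beta and gamma chains that it has in common with IL-2. Both are known to act through JAK1, JAK3 and the transcription factor STAT5, which induces its own feedback inhibitors, CD25 and survival genes of the BCL2 family.

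The 2 cytokines were compared directly in recently activated CD8+ T cells, as all 3 IL-7 arrays against all 3 IL-15 arrays, or 6 of the 18 arrays of the series, and described across 18211 genes with 1 probe set each. The cells of every group were OT-I Thy1.1 T cells from male TCR transgenic mice, in which a single receptor recognises an ovalbumin peptide, so the population represents 1 antigen specificity and not a natural repertoire. They were stimulated for 48 hours with peptide-pulsed, irradiated splenocytes from wild-type C57BL/6 mice, enriched for viable cells, and then cultured for 24 hours with recombinant murine IL-7 or IL-15 at 100 ng/ml, or in plain media (media control), while the remaining groups received IL-2, IL-4 or IL-21. RNA of replicates 1 and 2 was extracted with RNeasy and that of replicate 3 with TRIzol and Direct-zol, in every group. Fewer cells of a type and less RNA per cell cannot be told apart in bulk RNA of this kind.

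The values are log2 intensities made by the authors with RMA. IL-15 replicate 3, with media control replicate 3 and IL-2 replicate 3, lies on a lower scale as deposited, with medians of 4.47 to 4.52 against 5.76 to 5.84 in the other 15 arrays, and all 18 columns were therefore quantile normalized. Each difference below is IL-7 minus IL-15 on the log2 scale from limma, given with its standard error (SE). The fit took all 18 arrays, so that all groups share 1 estimate of the spread, with the replicate as a block. Adjustment of p was over all genes by the Benjamini-Hochberg method with a threshold of 0.05. The T cell genes measured, such as Cd3e, Cd8a and Cd8b1, were over the background level of 8.38 in both groups (13 of 13), where background is the 95th percentile of 32 genes of other tissues. Of 11 dendritic cell markers 3 were over background with IL-7 and 2 with IL-15, while none of the 14 myeloid, 7 NK, 4 CD4 T cell and 5 red cell markers was so in either group. Of 12 B cell markers none was over background with IL-7 and 1, Cd74, was with IL-15, and their mean level per array was 5.33 to 5.44 with IL-7 and 5.63 to 5.85 with IL-15.

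IL-7 treated cells had higher levels of 48 genes and lower levels of 13 than IL-15 treated cells, which is 0.264% and 0.0714% of the genes tested (0.335% together). The differences of the 48 ran from 0.44 to 2.41 with a median of 0.83, and 18 of them were over 1, a doubling. Those of the 13 ran from -0.50 to -0.92 with a median of -0.72. At an unadjusted p under 0.05 there were 2883 genes, or 15.8%. In 38 of the 48 all 3 IL-7 arrays were above all 3 IL-15 arrays, and in 9 of the 13 all 3 were below. Over all genes 906 (4.98%) and 800 (4.39%) separated in this way. All 61 genes differed in the same direction in each of the 3 same-numbered pairs of arrays. The genes were chosen by a fit to these same arrays with the pairs as a block, so this agreement is no separate support.

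**Figure D1:**
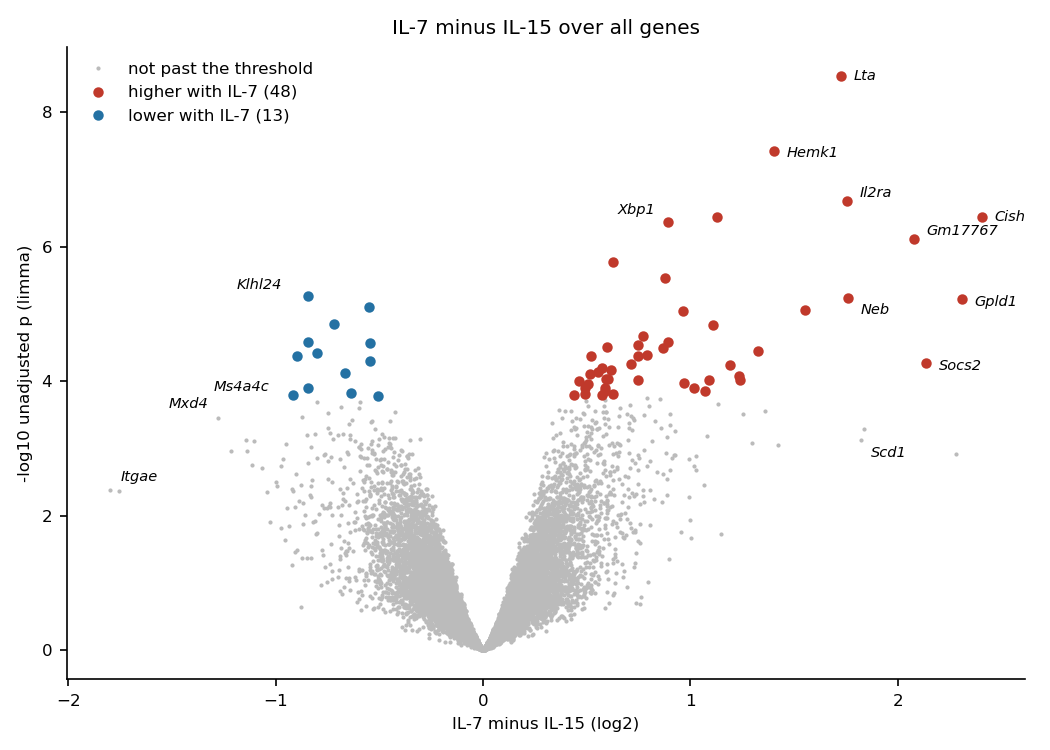
Difference between IL-7 and IL-15 (horizontal axis, log2, positive where IL-7 is higher) against -log10 of the unadjusted limma p (vertical axis) for each of 18211 genes, with the 48 genes higher with IL-7 in red and the 13 lower in blue. The differences of the red points reach 2.41 at Cish, while the largest blue one is -0.92 at Ms4a4c, and Scd1 and Itgae are named as large differences that did not pass.

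The counts moved most with replicate 3, and among single arrays with IL-15 replicate 3. This array is one of the lower scale and a TRIzol extract, and these properties cannot be told apart in it. In this array the 3' signal of actin exceeded the 5' signal by 0.50, against 0.41 in IL-7 replicate 3 and 0.16 to 0.34 in the RNeasy arrays of all groups. For Gapdh the same measure did not set it apart, at 0.022, against -0.010 in IL-7 replicate 3 and 0.011 to 0.14 in the RNeasy arrays. Without IL-15 replicate 3 the genes numbered 331 higher and 289 lower with IL-7, and with the RNeasy pairs only (replicate 3 left out of every group) 809 higher (4.44%) and 752 lower (4.13%). Without all 3 arrays of the lower scale they numbered 693 and 621. Each of these counts included all 48 and all 13 genes named above. Leaving out IL-7 replicates 1, 2 and 3 gave 8, 12 and 14 genes higher and 1, 0 and 2 lower, and leaving out IL-15 replicates 1 and 2 gave 11 and 8 higher and 0 lower. Without the replicate block the counts were 2 and 0. With only the 6 IL-7 and IL-15 arrays in the limma fit they were 0 and 0 (lowest adjusted p 0.0647). Leaving replicate 1 out of every group gave 0 and 0, and leaving replicate 2 out gave 2 and 0. The RNeasy pairs, the subset with the most genes, are given beside many of the results that did not pass with all arrays. Such results still count as not passed, and whether pair 3 differs from the others was not tested.

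Cytokine-inducible inhibitors of JAK and STAT signalling included the largest difference. Cish, which encodes the STAT5-induced inhibitor CIS, had levels of 11.22, 11.10 and 10.72 in the 3 IL-7 arrays, against 9.28, 8.33 and 8.22 in the IL-15 arrays and 8.28, 8.32 and 7.68 in media control. The IL-7 arrays were all above the IL-15 arrays, and IL-15 was 0.51 above media control (adjusted p = 0.663), most of it in replicates 1 and 3. The difference was 2.41 (SE 0.27, adjusted p = 0.00130), or 5.30-fold. Socs2, a related inhibitor best known for restraining growth hormone signalling, had levels of 9.95, 9.79 and 11.00 with IL-7 and 7.66, 6.69 and 9.98 with IL-15, and 7.47, 6.43 and 7.29 in media control. IL-15 replicate 3 was above IL-7 replicates 1 and 2 here, so the groups overlapped, and the IL-15 mean was under background. The difference of 2.14 (SE 0.38, adjusted p = 0.0305) became 2.69 in the RNeasy pairs. Socs1 and Socs3, which bind the JAK kinases directly, had differences of 0.66 (adjusted p = 0.0847) and 0.46 (adjusted p = 0.147). Of the 19 feedback inhibitors measured, 2 rose and none fell, against 0.264% and 0.0714% of all genes, with a median difference of 0.11, against -0.01 over all genes.

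The palindrome TTCNNNGAA, a form that STAT factors are known to bind, occurs at the RefSeq start of Cish (mouse build GRCm38.p6) in a pair. It is shown with Lta, the other gene past the threshold with 2 matches, and with Tnfrsf18, which has 1 match before its start. Rab19, which was lower with IL-7, also has 1 match before its start, and its sequence is not shown. The letters were searched in windows of 250 bases before to 50 after each RefSeq gene start. The motif reads the same on both strands, and its matches are in capitals, 5′ to 3′ on the gene's strand. The stretch of Cish opens 5 bases before the start, and those of Lta and Tnfrsf18 are the 250 bases before it.
Cish, chr9:107296654-107296683, plus strand: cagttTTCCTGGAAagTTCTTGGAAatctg
Lta, chr17:35205352-35205601, minus strand: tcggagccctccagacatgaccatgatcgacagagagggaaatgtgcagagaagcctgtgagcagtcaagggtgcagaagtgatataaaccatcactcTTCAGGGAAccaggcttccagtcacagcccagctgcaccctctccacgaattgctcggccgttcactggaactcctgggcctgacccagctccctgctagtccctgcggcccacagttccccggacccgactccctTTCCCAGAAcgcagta
Tnfrsf18, chr4:156026072-156026321, plus strand: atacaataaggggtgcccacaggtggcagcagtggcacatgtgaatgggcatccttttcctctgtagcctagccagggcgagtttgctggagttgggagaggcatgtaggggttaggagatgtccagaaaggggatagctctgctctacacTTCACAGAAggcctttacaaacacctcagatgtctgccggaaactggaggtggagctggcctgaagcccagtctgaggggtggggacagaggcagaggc
Of the 61 genes, 49 have a window in the RefSeq table and 5 of them (10.2%) hold the motif, namely Cish, Lta, Tnfrsf18 and Gzmb among those higher with IL-7 and Rab19 among those lower. Over all 32851 windows the share is 8.3%. Cish and Lta each hold 2 matches, which 150 windows (0.457%) do. A match of letters describes the sequence and does not show that a factor binds there.

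Of the 10 receptor chains measured, 1 rose and none fell, against 0.264% and 0.0714% of all genes. Il2ra, the gene of CD25, which gives the IL-2 receptor its high affinity, had levels of 10.76, 10.73 and 11.00 with IL-7 and 9.09, 8.60 and 9.53 with IL-15, and 8.69, 8.26 and 8.82 in media control. No IL-7 array came within 1 log2 unit of an IL-15 array, and the difference was 1.76 (SE 0.19, adjusted p = 0.00126), or 3.38-fold. Il7r, which encodes the chain specific to IL-7 and TSLP reception, was at 11.20, 11.43 and 10.88 with IL-7 against 11.53, 12.28 and 10.85 with IL-15. The groups overlapped at -0.39 (SE 0.20, adjusted p = 0.353), and the RNeasy pairs gave -0.59 (adjusted p = 0.0190). Against media control, Il7r fell by 0.84 with IL-7 (adjusted p = 0.0102) and was at -0.46 with IL-15 (adjusted p = 0.536). The chains that IL-15 signals through had small differences, with Il2rb, the beta chain, at 0.13 (SE 0.11, adjusted p = 0.555) and Il2rg, the gamma chain, at -0.19 (SE 0.10, adjusted p = 0.380). Il15ra, the IL-15 receptor alpha chain, had levels of 8.01, 7.82 and 7.84 with IL-7 and 7.93, 7.81 and 7.62 with IL-15, all under the background level. Crlf2, the receptor chain for TSLP that pairs with Il7r, was -0.27 (adjusted p = 0.282), Il9r was at 3.3 to 3.8 in all 6 arrays, and Il4ra, Il21r and Il13ra1 lay between -0.00 and 0.10. None of the 11 JAK and STAT genes passed, and the largest difference was that of the kinase gene Jak2 at -0.49 (adjusted p = 0.0933, -0.70 and 0.00499 in the RNeasy pairs). In the deposited values, which are shifted by 0.43 over all genes, the negative differences of Il7r, Crlf2, Il2rg and Jak2 are 0.086, 0.22, 0.19 and 0.011.

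STAT5 targets had more members past the threshold than any other list, though list members were chosen with earlier results of these data known. The counts therefore describe this list and do not test it. Of 33 measured, 11 rose and none fell, against 0.264% and 0.0714% of all genes, 29 differences were positive, and the median was 0.65. In the RNeasy pairs 18 were higher and none lower, against 4.44% and 4.13% of all genes. The 11 were Cish, Socs2, Il2ra, Lta, Osm, Lif, Tnfrsf4, Gzmb, Xbp1, Tnfrsf18 and Myc. Targets that did not pass included the survival gene Bcl2 at 0.99 (SE 0.25, adjusted p = 0.0920), with levels of 12.02, 12.42 and 12.14 with IL-7 and 10.94, 10.79 and 11.88 with IL-15, and the serine kinase gene Pim1 at 0.90 (SE 0.24, adjusted p = 0.109). For Bcl2 the IL-7 arrays were all above the IL-15 arrays, by 1.36 in the RNeasy pairs (adjusted p = 0.00145). Its other probe sets gave 0.80 to 1.26 with all arrays. The probe set at 1.13, with a mean level of 8.85, did pass (limma p adjusted over all probe sets = 0.0492). Bcl2l1, which encodes BCL-XL, was at 0.41 (adjusted p = 0.271, 0.66 and 0.00813 in the RNeasy pairs). The 16 BCL2 family genes had a median of -0.00, and none passed with the probe set used. In the RNeasy pairs 4 were higher and none lower, against 4.44% and 4.13% of all genes.

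**Figure D2:**
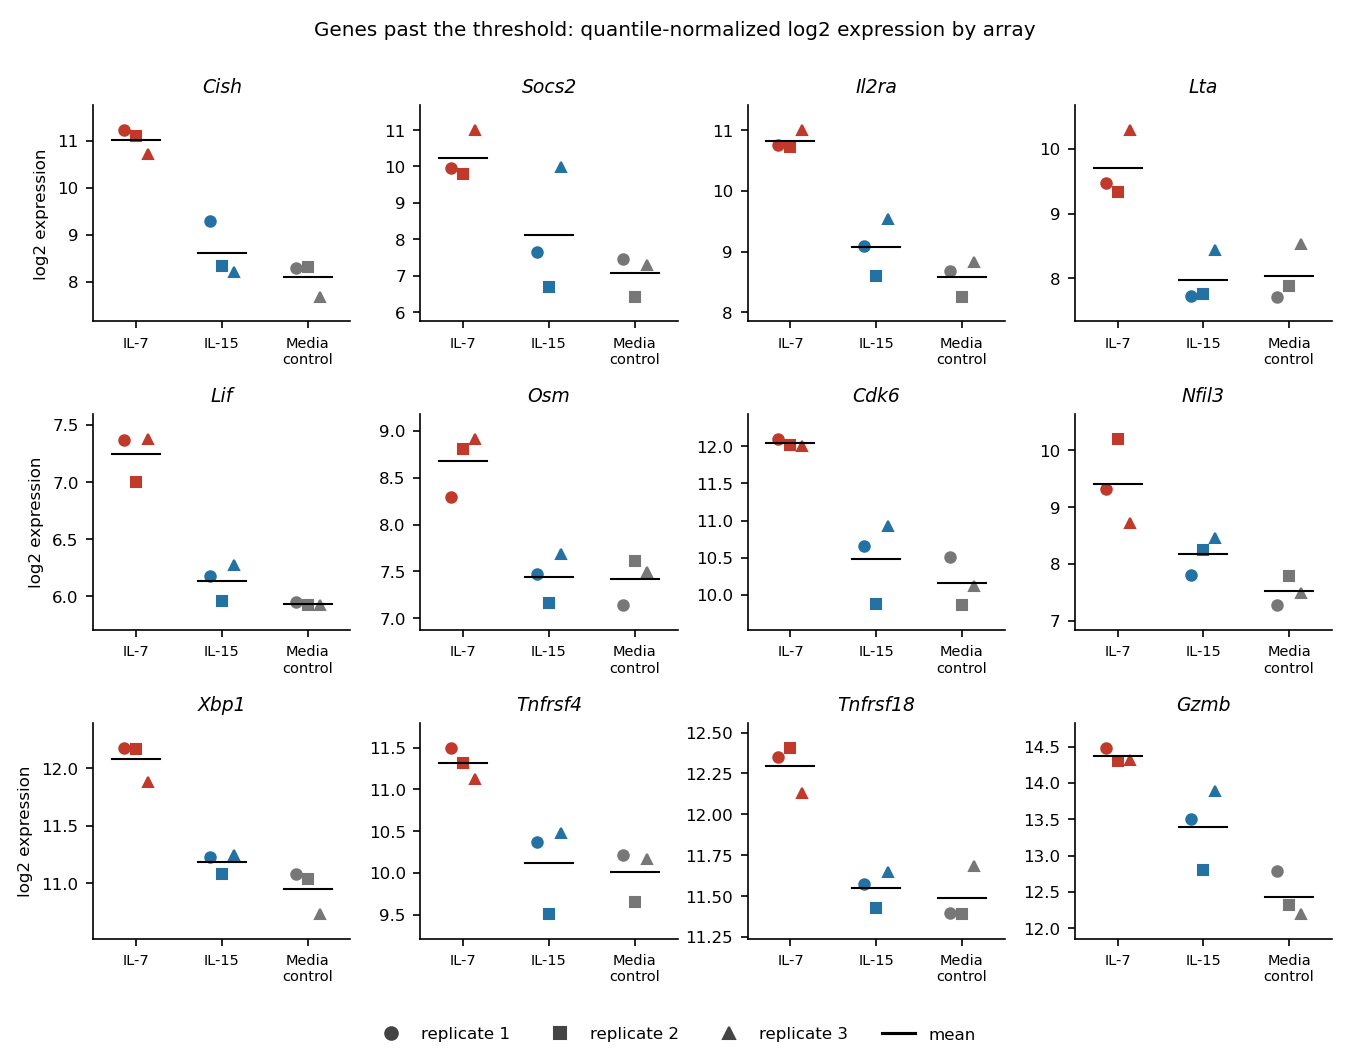
Quantile-normalized log2 expression (vertical axis) of 12 genes past the threshold in the IL-7, IL-15 and media control arrays (horizontal axis), with replicates 1, 2 and 3 as circles, squares and triangles and the group mean as a line. In each panel except Socs2 the 3 IL-7 arrays lie above the 3 IL-15 arrays, and for Lta, Osm, Tnfrsf4 and Tnfrsf18 the IL-15 mean is within 0.11 of media control.

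Transcripts of secreted cytokines were next. Lta, which encodes lymphotoxin alpha of the TNF family, had levels of 9.48, 9.34 and 10.29 with IL-7, against 7.73, 7.76 and 8.44 with IL-15 and 7.71, 7.87 and 8.52 in media control. The groups did not overlap, the IL-15 mean was under background, and the difference of 1.73 (SE 0.13, adjusted p = 5.26e-05), or 3.31-fold, had the lowest p of all genes. With IL-15 the difference of Lta from media control was -0.06 (adjusted p = 1). Osm and Lif, cytokines of the IL-6 family that share the gp130 receptor chain, rose by 1.23 (SE 0.23, adjusted p = 0.0387) and 1.11 (SE 0.17, adjusted p = 0.0159). Osm was at 8.30, 8.81 and 8.91 with IL-7 and at 7.47, 7.16 and 7.69 with IL-15. Lif was at 7.37, 6.997 and 7.38 with IL-7 and at 6.18, 5.96 and 6.27 with IL-15, under the background level in both, so its size is not exact. The other 16 cytokine genes, Ifng among them, did not pass. Of the 19, 3 rose and none fell, against 0.264% and 0.0714% of all genes, and their median was 0.12. Only 4 of the 19 were over background with IL-7 and 2 with IL-15.

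Some of these genes lie side by side. In the order of protein-coding genes on the RefSeq assembly GRCm38.p6, Osm and Lif are neighbours on chromosome 11, Tnfrsf4 and Tnfrsf18 on chromosome 4, Cish and Hemk1 on chromosome 9, and Phc3 and Prkci on chromosome 3. All 4 adjacent pairs among the 61 genes were higher with IL-7, as were 48 of the 61 genes. Whether neighbours differ together more often than other genes was not tested. Hemk1, which encodes a methyltransferase for translation release factors, had levels of 8.70, 8.91 and 8.33 with IL-7 against 7.42, 7.21 and 7.10 with IL-15. The groups were apart at 1.40 (SE 0.13, adjusted p = 0.000345), with the IL-15 mean under background, and a further probe set of Hemk1 gave 1.47. Phc3, a Polycomb subunit, rose by 0.89 and Prkci, an atypical protein kinase C, by 0.49.

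The costimulatory receptors Tnfrsf4 (OX40) and Tnfrsf18 (GITR), members of the TNF receptor family that sustain activated T cells, rose by 1.19 (SE 0.21, adjusted p = 0.0313) and 0.75 (SE 0.12, adjusted p = 0.0237). Tnfrsf4 was at 11.50, 11.31 and 11.12 with IL-7 and at 10.37, 9.51 and 10.48 with IL-15. Tnfrsf18 was at 12.35, 12.41 and 12.13 with IL-7 and at 11.57, 11.43 and 11.65 with IL-15. Neither gene's groups overlapped, and the differences between IL-15 and media control were 0.11 and 0.06 (adjusted p = 1 for each). Tnfrsf9, which encodes 4-1BB, was at 0.86 (SE 0.19, adjusted p = 0.0714, 1.04 and 0.0182 in the RNeasy pairs). A further Tnfrsf9 probe set, with a mean level of 10.64, did pass with all arrays. It gave 1.04 (SE 0.16, limma p adjusted over all probe sets = 0.0225), while another at a mean of 4.16, under background, gave -0.08. The remaining members of the 13 measured did not pass, with Cd27 at -0.37 and Tnfrsf1a at -0.33 (0.11 and 0.17 as deposited), and the list median was -0.11. With 1 probe set per gene, 2 of the 13 rose and none fell, against 0.264% and 0.0714% of all genes. None of 11 inhibitory receptors passed, and the one with the largest difference, Cd160, had levels of 9.71, 9.78 and 9.80 with IL-7 and 10.31, 10.34 and 10.41 with IL-15, at -0.59 (SE 0.14, adjusted p = 0.0847).

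Gzmb, which encodes the cytotoxic protease granzyme B, was the only gene to pass of 18 cytotoxic effector genes. Its levels were 14.48, 14.30 and 14.32 with IL-7, 13.50, 12.80 and 13.89 with IL-15 and 12.78, 12.32 and 12.19 in media control. The IL-7 arrays were above the IL-15 arrays by 0.97 (SE 0.18, adjusted p = 0.0418) and these were above media control by 0.97 (adjusted p = 0.167), although values near 14 lie at the upper end of the array's range. Some other granzymes had differences of the opposite sign that did not pass, with Gzma at -0.83 (adjusted p = 0.137), Gzmk at -0.78 (adjusted p = 0.165) and Gzmd at -0.85 (adjusted p = 0.300), the last under background in all arrays. The list had 5 positive and 13 negative differences and a median of -0.10. Of its 18 genes 1 rose and none fell, against 0.264% and 0.0714% of all genes. Killer lectin-like receptors did not pass either, with Klrd1, which encodes CD94, at -0.81 (adjusted p = 0.195).

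Cdk6, a G1 kinase, had levels of 12.10, 12.02 and 11.998 with IL-7 and 10.65, 9.88 and 10.92 with IL-15. The IL-7 arrays agreed within 0.10 while the IL-15 arrays spread over a unit, and the difference was 1.55 (SE 0.23, adjusted p = 0.0110). Nfil3, a basic leucine zipper repressor, rose by 1.24 (SE 0.23, adjusted p = 0.0391), Zbtb32, a zinc finger repressor of activated lymphocytes, by 0.96 (SE 0.14, adjusted p = 0.0110), and Xbp1, the transcription factor of the unfolded protein response, by 0.89 (SE 0.10, adjusted p = 0.00130). Xbp1 was at 12.18, 12.17 and 11.88 with IL-7 and at 11.23, 11.08 and 11.24 with IL-15, one of the steadiest separations. Myc, the growth regulator, was at 10.95, 11.12 and 10.40 with IL-7 and at 10.40, 10.61 and 9.57 with IL-15. These groups overlapped across pairs but not within them, and the difference was 0.63 (SE 0.12, adjusted p = 0.0489). Batf3, an AP-1 factor, was at 1.14 (SE 0.23, adjusted p = 0.0577). Ikzf2, which encodes Helios, was at -1.22 (adjusted p = 0.0890), and Mxd4, a repressor that competes with MYC for MAX, at -1.28 (SE 0.27, adjusted p = 0.0658, -1.84 and 0.00118 in the RNeasy pairs). None of the 30 effector and memory transcription factors passed with all arrays, and 2 were higher and 7 lower in the RNeasy pairs, against 4.44% and 4.13% of all genes.

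Further rises were seen in genes of varied function. Gpld1, a phospholipase that cleaves GPI anchors, had levels of 8.18, 9.62 and 7.64 with IL-7 and 5.80, 6.28 and 6.42 with IL-15, a difference of 2.31 (SE 0.33, adjusted p = 0.00923) with the IL-15 mean under background. The predicted gene Gm17767 was at 10.61, 10.73 and 10.71 with IL-7 and at 8.31, 8.38 and 9.13 with IL-15 (2.08, SE 0.25, adjusted p = 0.00202). Both genes kept their groups well apart. Neb, which encodes the muscle protein nebulin, rose by 1.76 (SE 0.25, adjusted p = 0.00923) at levels of 3.6 to 6.5 that are all under background. P2ry14, a receptor for UDP-sugars, rose by 1.33, Armcx4, an armadillo repeat gene of the X chromosome, by 1.13, Kcnk5, a potassium channel, by 1.07 and Cndp2, a dipeptidase, by 1.02. The means of P2ry14 and Armcx4 were under background in both groups. Trgv4, a T cell receptor gamma variable segment, was at 8.64, 7.69 and 9.98 with IL-7 and at 7.60, 6.24 and 9.21 with IL-15, with a difference of 1.09 (SE 0.20) that is small beside its spread over replicates, and probes of such segment families can share targets. Of the 48 genes, 21 had an IL-15 mean and 12 also an IL-7 mean that was not over background, so that the sizes of their differences are not exact.

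Mybbp1a, a nucleolar protein of ribosomal RNA synthesis, rose by 0.59 (SE 0.11, adjusted p = 0.0447), Gart, an enzyme of purine synthesis, by 0.57, Wdr18 and Pelp1, partners in ribosome maturation, by 0.57 and 0.49, and Eif4e3, a cap-binding protein, by 0.88. Agpat3, an acyltransferase of phospholipid synthesis, rose by 0.63 (SE 0.08, adjusted p = 0.00385), with levels of 10.37, 10.14 and 10.25 with IL-7 and 9.77, 9.57 and 9.53 with IL-15. The other probe sets of Agpat3, with mean levels of 6.08 to 7.77 that are under background, gave 0.13 to 0.26, and none passed. The size given for Agpat3 thus rests on 1 probe set. Agpat3 was among the 8 genes that passed whichever of the 6 arrays was left out, together with Armcx4, Cish, Gm17767, Hemk1, Il2ra, Lta and Xbp1. The gene nearest the threshold among those past it was Evi2a (adjusted p = 0.0495), before Ms4a4c, Pgrmc2, Wdr18, Myc, Pelp1 and St8sia4 (adjusted p = 0.0489 for each), and those just short of it were Fbxo17, Txnrd1 and Fam20a (adjusted p = 0.0528, 0.0536 and 0.0536).

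Among the 13 genes lower with IL-7, none belonged to a pathway list. Ms4a4c, a membrane protein of the MS4A family, had levels of 8.94, 8.91 and 9.003 with IL-7, against 9.72, 10.19 and 9.69 with IL-15 and 9.95, 10.27 and 10.35 in media control. The IL-7 arrays hardly varied and all were lower, by -0.92 (SE 0.18, adjusted p = 0.0489). Trim12a, a TRIM family gene, was at -0.90 (SE 0.15, adjusted p = 0.0258), and Klhl24, a ubiquitin ligase adaptor, was at 8.12, 8.57 and 8.99 with IL-7 and at 9.08, 9.73 and 9.41 with IL-15 (-0.85, SE 0.12, adjusted p = 0.00923). Sla, an adaptor that dampens T cell receptor signalling, fell by 0.72 (SE 0.11, adjusted p = 0.0158) to 11.37, 11.49 and 11.73 with IL-7, against 12.06, 12.47 and 12.22 with IL-15. Rgs10, a regulator of G protein signalling, and Lpxn, a focal adhesion adaptor of leukocytes, each fell by 0.55 (SE 0.09 and 0.08), St8sia4, a polysialyltransferase, by 0.64, Ift80, a gene of ciliary transport, by 0.80 and Rab19, a small GTPase, by 0.84. Cd72, a lectin known mainly from B cells, fell by 0.54 (SE 0.10, adjusted p = 0.0292) to 8.10, 8.54 and 7.91 with IL-7, against 8.52, 9.07 and 8.59 with IL-15, which overlapped across pairs. B cell markers had a median difference of -0.31 with 11 of 12 negative, none of which passed, and their part in the difference of Cd72 was not tested. Pls1, Syt11, Trim12a and Cd72 had an IL-7 mean that was not over background.

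**Figure D3:**
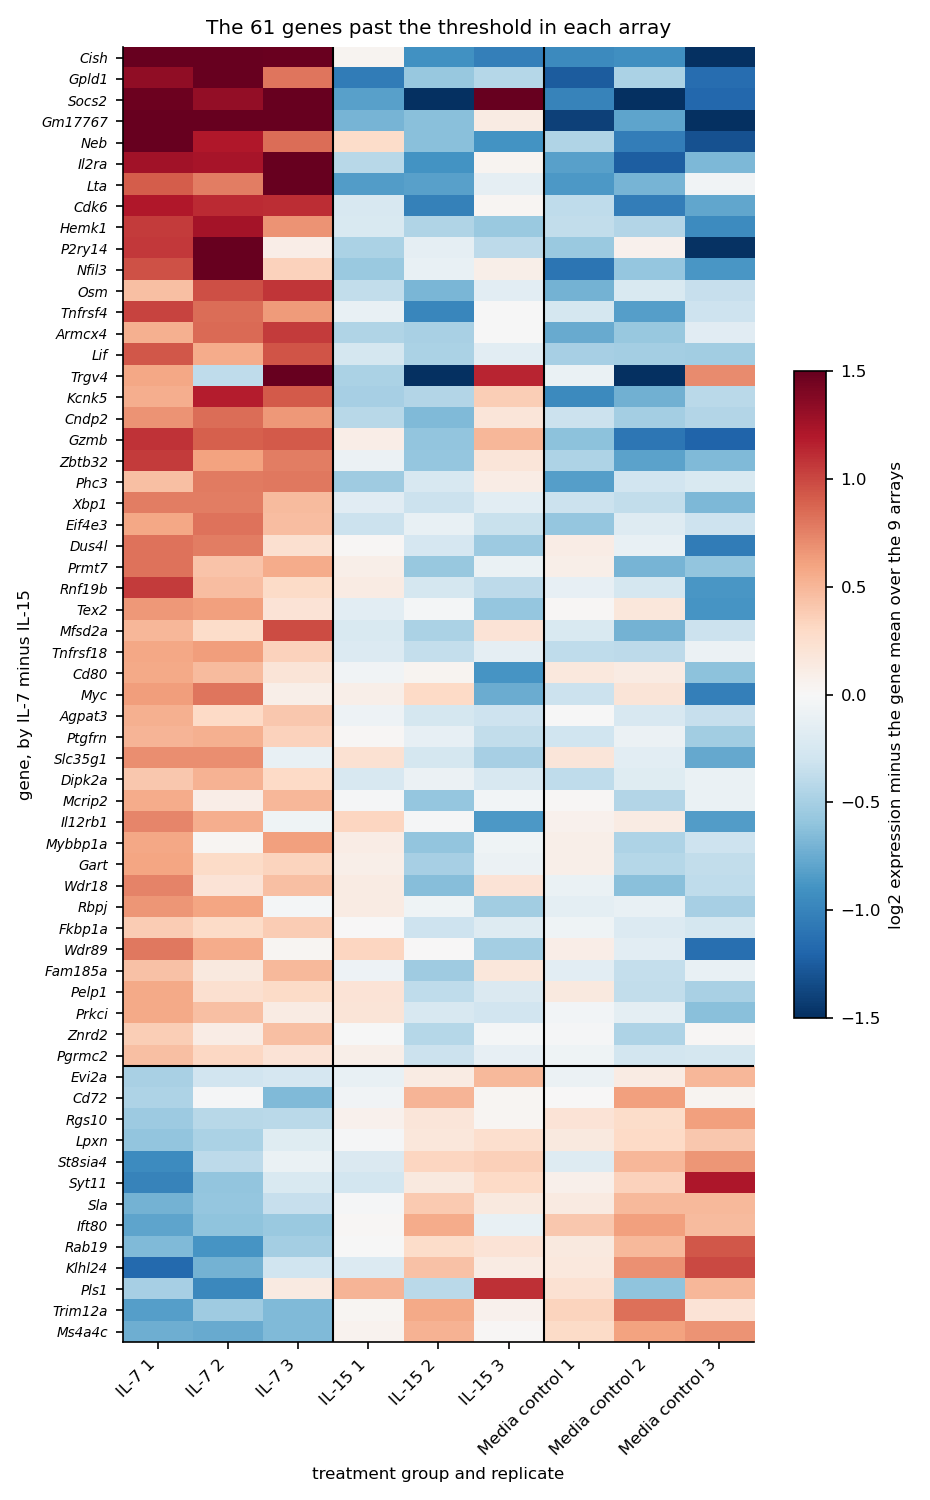
Log2 expression of each of the 61 genes (rows, by the size of IL-7 minus IL-15) in the 9 IL-7, IL-15 and media control arrays (columns), as the difference from the gene's mean over these arrays, with colours saturating at 1.5 in either direction. The IL-7 columns carry the red above the line between the 48 higher and 13 lower genes, and Socs2, Trgv4 and Pls1 are the darkest red cells of IL-15 replicate 3.

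The level in media control places both cytokines. The 48 genes that were higher with IL-7 had a median difference from media control of 1.00 with IL-7 (0.46 to 3.18) and of 0.16 with IL-15 (-0.19 to 1.04), and the 13 lower genes one of -0.92 and of -0.23. The genes were chosen by IL-7 minus IL-15, and both differences use the same media control arrays, so these medians are given side by side as a description. Over all genes 1519 (8.34%) were higher and 1459 (8.01%) lower with IL-7 than in media control, whereas with IL-15 limma gave 0 genes in each direction (0%), although 1567 (8.6%) had an unadjusted p under 0.05, and no adjusted p was below 0.158. The other cytokines placed these genes differently. Cish averaged 11.01 ± 0.26 with IL-7, 8.61 ± 0.59 with IL-15, 11.40 ± 1.05 in IL-2 cultures, 11.98 ± 0.28 under IL-4, 9.94 ± 0.28 under IL-21 and 8.10 ± 0.36 in media control (SD, n = 3 each). The IL-7 and IL-2 means differed by less than the SD of IL-2 but by more than that of IL-7, and this difference was not tested. Lta averaged 9.70 ± 0.52 with IL-7 (SD, n = 3), below the mean of 11.72 in IL-2 cultures and above those of 7.21 and 6.26 under IL-4 and IL-21.

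Sterol and fatty acid genes had differences that did not pass with all arrays. Cholesterol synthesis turns acetyl-CoA into sterols under the control of the SREBP factors, and 20 of its 21 genes had positive differences, with a median of 0.52 and none past the threshold. In the RNeasy pairs 14 of the 21 were higher and none lower, against 4.44% and 4.13% of all genes, with a median of 0.78. Fdps, which makes farnesyl diphosphate, had levels of 11.89, 12.14 and 11.57 with IL-7 and 11.06, 10.64 and 11.25 with IL-15 (0.88, SE 0.22, adjusted p = 0.0897, 1.16 and 0.0182 in the RNeasy pairs). Lss, lanosterol synthase, was at 0.86 (adjusted p = 0.159). Msmo1, a methylsterol monooxygenase, was at 10.96, 11.02 and 11.08 with IL-7 and at 9.96, 9.57 and 11.18 with IL-15, so that IL-15 replicate 3 reached the IL-7 level and the other IL-15 arrays did not. The list's median was 0.58 and 0.79 in pairs 1 and 2 and 0.09 in pair 3. Against media control it was 0.82, 1.08 and 0.83 with IL-7 and 0.20, 0.29 and 0.81 with IL-15, in replicates 1, 2 and 3.

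Scd1, the stearoyl-CoA desaturase, had the largest difference of the 17 fatty acid synthesis genes, with levels of 9.98, 10.71 and 10.12 with IL-7 and 8.06, 7.503 and 9.79 with IL-15. All IL-7 arrays were above all IL-15 arrays, and the difference of 1.82 (SE 0.43, adjusted p = 0.0810) was 2.57 in the RNeasy pairs (adjusted p = 0.00579). Fads2, a further desaturase, was at 1.42 (SE 0.34, adjusted p = 0.0847) and Acsl3, an acyl-CoA synthetase, at 0.60 (adjusted p = 0.136). None of the 17 passed with all arrays, 6 were higher in the RNeasy pairs, against 4.44% of all genes, and the median was 0.29.

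**Figure D4:**
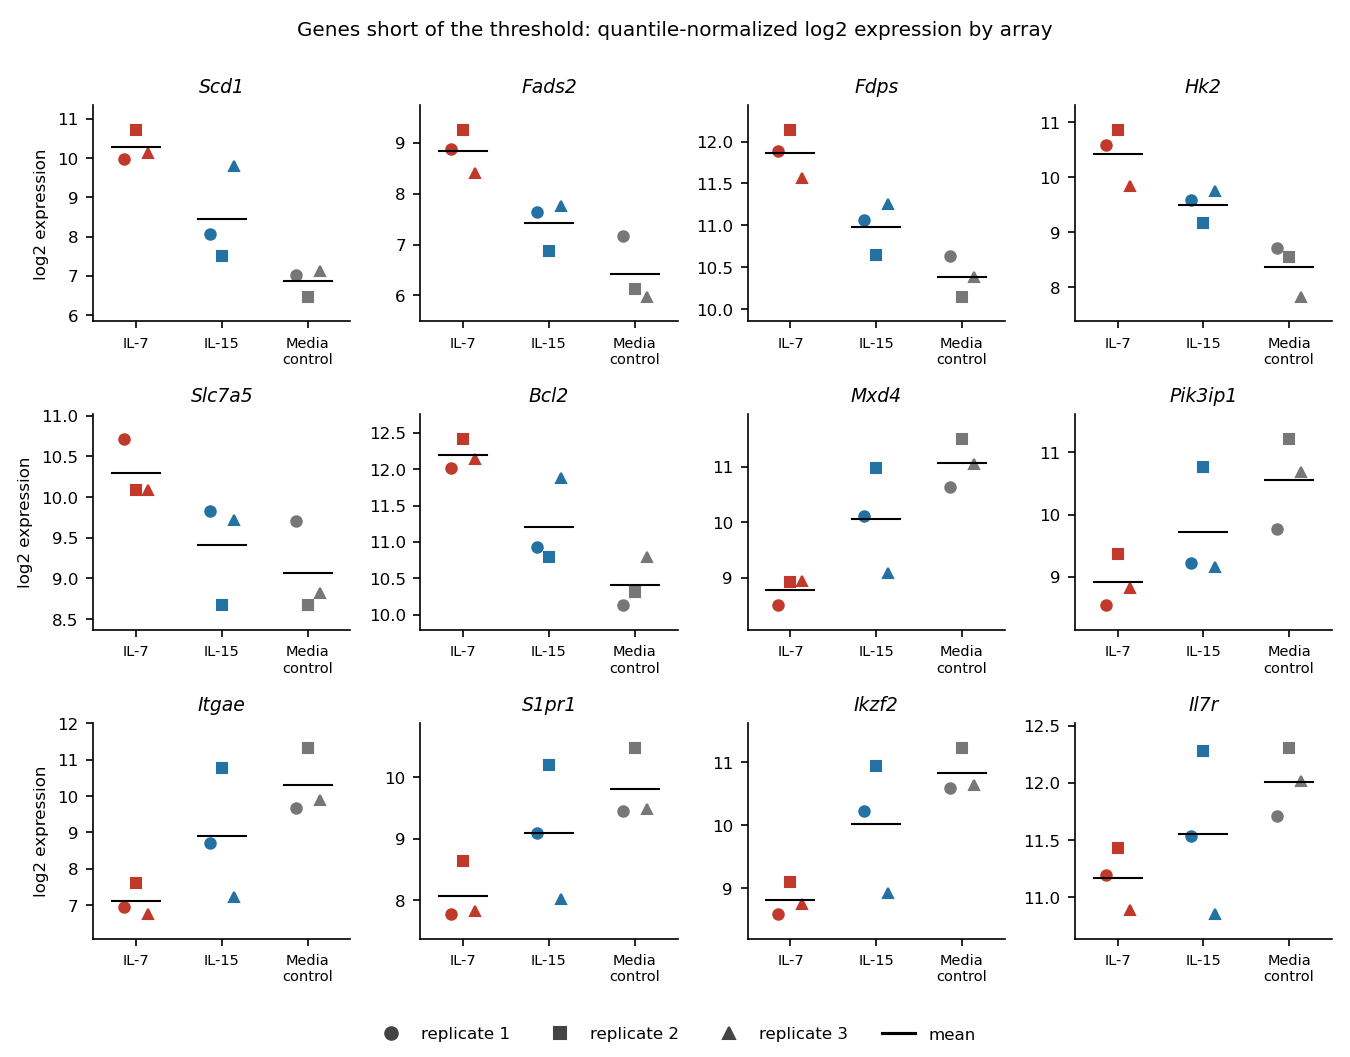
Quantile-normalized log2 expression (vertical axis) of 12 genes that did not reach the threshold with all arrays, in the IL-7, IL-15 and media control arrays (horizontal axis), with replicates 1, 2 and 3 as circles, squares and triangles and the group mean as a line. For Scd1, Bcl2, Mxd4, Itgae and Ikzf2 the triangle of IL-15 lies nearer to the IL-7 arrays than its circle and square do.

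Genes of carbon and amino acid metabolism had smaller differences, most of them positive. All 19 glycolysis genes had positive differences, with a median of 0.31 and none past the threshold, and 5 were higher in the RNeasy pairs, against 4.44% of all genes. Hk2, the hexokinase that commits glucose to glycolysis, had levels of 10.59, 10.86 and 9.84 with IL-7 and 9.58, 9.16 and 9.75 with IL-15 (0.93, SE 0.23, adjusted p = 0.0897, 1.35 and 0.00493 in the RNeasy pairs). The gap was 1.003 and 1.70 in pairs 1 and 2 and 0.086 in pair 3. Pfkp, a phosphofructokinase, was at 0.59 (adjusted p = 0.0679). Of 20 hypoxia response genes 18 had positive differences with a median of 0.42, among them the prolyl hydroxylases P4ha2 at 1.07 (adjusted p = 0.136) and Egln3 at 0.76 (adjusted p = 0.161), and 8 were higher in the RNeasy pairs, against the same 4.44%. Amino acid synthesis and ATF4 targets had a median of 0.32 over 23 genes, with Pycr1 at 1.00 (adjusted p = 0.194) and Asns, asparagine synthetase, at 0.75 (adjusted p = 0.248). In the RNeasy pairs 5 of the 23 were higher and none lower, against 4.44% and 4.13% of all genes. Among 19 nutrient transporters Slc7a5, a subunit of the large neutral amino acid transporter, was at 10.71, 10.09 and 10.08 with IL-7 and at 9.82, 8.68 and 9.72 with IL-15 (0.89, adjusted p = 0.0797). Slc2a1, which encodes GLUT1, was at 0.55 (adjusted p = 0.132), and Slc43a1, a further amino acid transporter, at -0.97 (adjusted p = 0.0920). Of the 19 transporters 8 were higher and 1 lower in the RNeasy pairs, against the same shares of all genes.

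Ribosome biogenesis genes had 27 of 29 positive differences, a median of 0.31 and 1 gene past the threshold, Mybbp1a, against 0.264% of all genes. In the RNeasy pairs 19 were higher and none lower, against 4.44% and 4.13% of all genes. Rrp1b and Nop16, both nucleolar, were at 0.61 and 0.59 (adjusted p = 0.0714 and 0.0776). DNA replication and mitosis genes had a median of 0.21 with 30 of 35 positive, none passed, and the 2 that were higher in the RNeasy pairs are a share near the 4.44% of all genes. The 12 housekeeping genes, all over background, had a median of 0.06.

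Genes of quiescence, homing and the interferon response had mostly negative differences. Of 22 quiescence and antiproliferative genes 19 were negative, with a median of -0.25 and none past the threshold, and 5 were lower in the RNeasy pairs, against 4.13% of all genes. Pik3ip1, an inhibitor of PI3 kinase, was at 8.54, 9.37 and 8.82 with IL-7 and at 9.22, 10.76 and 9.16 with IL-15 (-0.80, SE 0.20, adjusted p = 0.0920), and Txnip, which limits glucose uptake, was at -0.74 (adjusted p = 0.160). Cdkn1a, which encodes the cell cycle inhibitor p21, had the opposite sign at 0.84 (adjusted p = 0.111). Of 16 homing and egress genes 15 were negative, with a median of -0.35, and 8 were lower in the RNeasy pairs, against the same 4.13%. As deposited the medians are positive, at 0.23 for quiescence, 0.15 for homing, 0.26 for interferon response and 0.18 for chemokine genes, beside 0.43 over all genes. Itgae, the alpha chain of CD103 that holds T cells in epithelium, had levels of 6.94, 7.62 and 6.75 with IL-7 and 8.72, 10.76 and 7.22 with IL-15. The IL-15 arrays spread over 3.5 units and overlapped with IL-7, and the difference was -1.80 (SE 0.53, adjusted p = 0.141, -2.46 and 0.0192 in the RNeasy pairs). S1pr1, the egress receptor, was at -1.02 (adjusted p = 0.196, -1.44 and 0.0180 in the RNeasy pairs). Among 21 chemokine genes and receptors, Xcl1, the ligand of XCR1 on dendritic cells, was lower in all 3 IL-7 arrays (9.52, 8.97 and 10.01) than in the IL-15 arrays (10.54, 10.73 and 10.42), at -1.06 (adjusted p = 0.106). The type I interferon response list had a median of -0.21 over 26 genes with 5 lower in the RNeasy pairs (4.13% of all genes), and its largest difference was that of Ifi209, an interferon-inducible DNA sensor family gene, at -1.10 (adjusted p = 0.0811). Of the 26, 8 were over background with IL-7 and 9 with IL-15, and 7 of the 21 chemokine genes were so in each group. Some other lists were mostly negative too. T cell identity genes had a median of -0.155 (10 of 13 negative) and myeloid markers one of -0.20 (11 of 14).

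**Figure D5:**
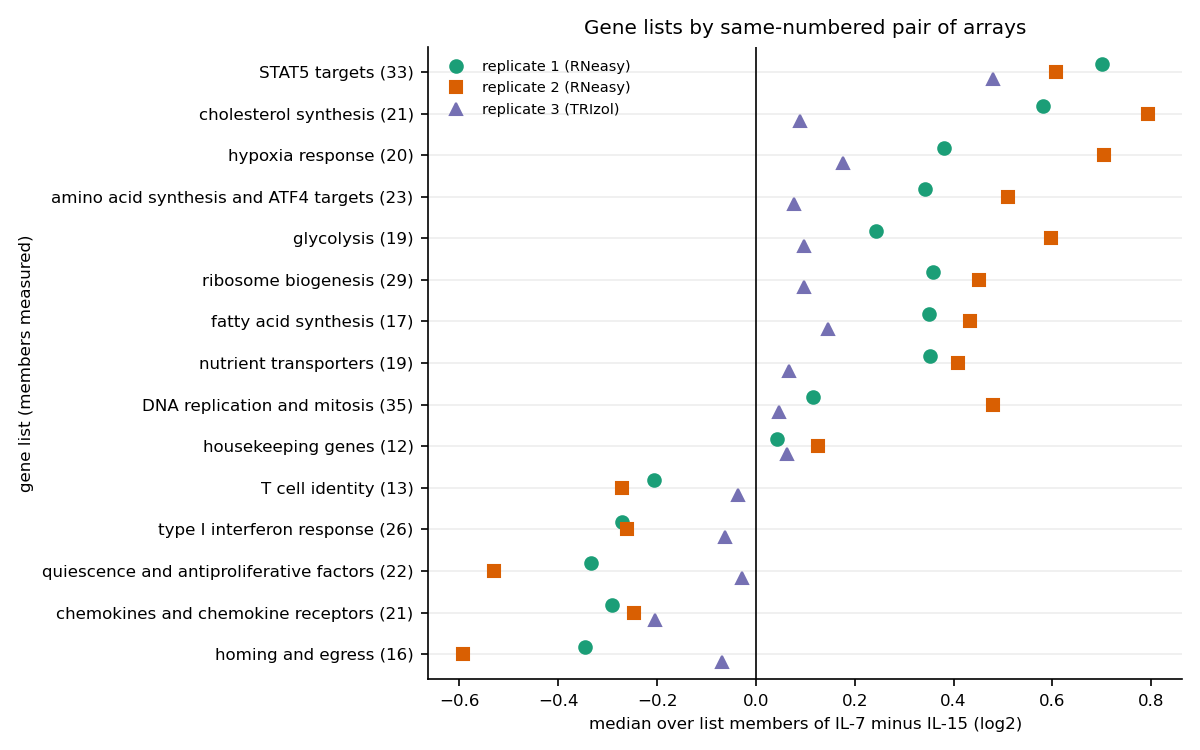
Median over the members of each gene list of IL-7 minus IL-15 (horizontal axis, log2) in the same-numbered pairs of arrays, with list names and member numbers on the vertical axis and pairs 1, 2 and 3 as circles, squares and triangles. Pair 3, in which IL-15 was on the lower scale before normalization, lies nearest to 0 in the lists shown except the housekeeping genes, at 0.09 for cholesterol synthesis for example.

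Not every list had its smallest median in pair 3. Feedback inhibitors had medians of 0.12, 0.06 and 0.29 in pairs 1, 2 and 3, B cell markers -0.19, -0.16 and -0.40, and JAK and STAT genes -0.12, -0.34 and 0.17. STAT5 targets had medians of 0.70, 0.61 and 0.48 in pairs 1, 2 and 3, and the 48 genes higher with IL-7 medians of 0.82, 0.99 and 0.68. Ribosome biogenesis had 0.36, 0.45 and 0.10, quiescence genes -0.33, -0.53 and -0.03, and homing genes -0.35, -0.59 and -0.07. With IL-15, ribosome biogenesis genes had medians against media control of -0.04, -0.08 and 0.54 in replicates 1, 2 and 3, while with IL-7 they had 0.31, 0.38 and 0.69. Scale and extraction were not tested as parts of these differences.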

How the data were processed

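RNA of 18 cultures (6 groups of 3 biological replicates) was hybridised to Affymetrix mouse GeneChip arrays after Ambion MessageAmp Premier labelling. The authors made the deposited log2 values per probe set with RMA in Expression Console 1.1 (Command Console 3.1.1), and no earlier array files were used here. No value is a count, so depth does not apply, and precision is limited by how many arrays there are. Columns were quantile normalized together, because 3 lay on a lower scale.

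Of 45101 probe sets, 34958 have 1 gene symbol in the annotation used, 932 have several or none and 9211 are not listed, 17 of which were named from tables of the study. The probe set with the highest mean stood for each of 18211 genes. limma 3.58.1 (R 4.3.3) was run with lmFit on 6 group means plus the replicate number as a fixed block (leaving 10 residual degrees of freedom), then eBayes with a two-sided contrast, with Benjamini-Hochberg adjustment and a threshold of 0.05. The numbers pair the samples: after gene and group means were removed, 45 same-numbered pairs of arrays correlated at 0.44 or higher across genes and 90 differently numbered pairs at 0.38 or lower. On simulated data for IL-7 minus IL-15 over 18211 genes the fit recovered 94% of 100 genes changed by 1 (log2) and 100% of 100 changed by 2, with 13 false calls. The simulated noise was independent between genes and arrays, and the lower scale was a constant shift. These shares therefore do not give the power in the real arrays. There, 44 genes had a fitted size over 1, and 18 higher and 0 lower of that size passed.

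The background level came from 32 tissue genes not expected in T cells, as the 95th percentile of their mean levels. Of the 61 genes past the threshold, 37 have other probe sets (69), of which 9 have the opposite sign, none of these over background. The genes named are the 20 largest rises and 12 largest falls, list members past the threshold and up to 3 others per list with the largest difference, all receptor chains, a few fixed regulators and those next to the threshold. Further genes past the threshold were named after their values were seen. Lists carry no test of their own. The comparison, members and lists were chosen with earlier results of these data known. Promoter sequences are from RefSeq, build GRCm38.p6. Python 3.11.15, pandas 2.3.3 and matplotlib 3.10.9 were used for tables and figures. Alternatives concerned normalization, the block, the arrays, the probe set, a filter on low values and the variance model. The values of 1 gene that the naming rule selects are not reported here.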

Additional observations from a re-analysis of the deposited data

How the results depend on the processing

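All 61 genes kept their direction under every alternative in which they were tested, while the number past the threshold (48 higher and 13 lower with IL-7) moved. The genes were chosen on these same arrays and had the same sign in every pair, so the kept direction is no separate support. Leaving out the replicate block, for example, does not change a difference. With the replicate block, the values as deposited gave 14 and 0, a shift of every array to 1 median 62 and 8, and only the 6 IL-7 and IL-15 arrays 0 and 0 (1932 at an unadjusted p under 0.05, lowest adjusted p 0.0647). Without the replicate block the counts were 2 and 0 after quantile normalization (811 at an unadjusted p under 0.05) and 0 and 0 as deposited (197), so that 2 of the 61 genes passed without it. The replicates as a random block gave 32 and 10. The mean over probe sets gave 28 and 5, the probe set of largest variance 27 and 9, removal of genes under background 224 and 145 of 5837 tested, and eBayes with trend and robust 114 and 39. Leaving out single arrays or replicate numbers gave 0 to 809 genes higher and 0 to 752 lower. The counts were 0 and 0 without replicate 1 (1586 at an unadjusted p under 0.05, lowest adjusted p 0.0653) and 2 and 0 without replicate 2 (1106), 8 and 1, 12 and 0 and 14 and 2 without IL-7 replicates 1, 2 and 3, and 11 and 0, 8 and 0 and 331 and 289 without IL-15 replicates 1, 2 and 3. Without the 3 arrays of the lower scale, an alternative chosen after seeing the data, they were 693 and 621. The causes were not tested.

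As deposited, the median over all genes is shifted by 0.43, as IL-15 holds an array of the lower scale and IL-7 none, and the share of calls higher with IL-7 is 100% (14 genes) against 78.7% after quantile normalization and 88.6% after the shift to 1 median. Of the uncalled genes named, 12 changed sign as deposited, with or without the block, to 0.086 for Il7r, 0.22 for Crlf2, 0.19 for Il2rg, 0.49 for Il21r, 0.011 for Jak2, 0.21 for Jak1, 0.13 for Il24, 0.11 for Cd27, 0.17 for Tnfrsf1a, 0.033 for Cd247, 0.035 for Cd8b1 and 0.14 for Cd28. Il21r, at -0.00, was also 0.066 after the shift to 1 median, -0.11 and 0.15 without replicates 1 and 3, 0.07 and 0.11 without IL-7 or IL-15 replicate 3 and 0.19 without the arrays of the lower scale. Il4ra, at 0.03, was -0.084 and -0.00094 without replicates 1 and 3, -0.01 and -0.07 without IL-7 or IL-15 replicate 1 and -0.041 without the arrays of the lower scale. Il24, at -0.32, was -0.71 without replicate 1 and 0.23, 0.19 and 0.19 without replicate 3, IL-15 replicate 3 or the arrays of the lower scale.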
